A study of Homo sapiens with 24 samples.

Results

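Integrins and classical or related cadherins were followed in 2 human neuroblastoma cell lines in which NDUFS6 had been lowered or raised. The genes were taken by symbol from the expression table, as the numbered or lettered integrin alpha genes, integrin beta genes 1 to 8 and the numbered CDH genes. This gave 49 rows, and 20 of them reached 1 FPKM (a level per length of transcript and per sequenced library size) in at least 3 of the 24 libraries. The 20 genes were 12 integrin alpha genes (ITGA1, ITGA2, ITGA3, ITGA4, ITGA5, ITGA6, ITGA7, ITGA8, ITGA9, ITGA11, ITGAE and ITGAV), 4 integrin beta genes (ITGB1, ITGB3, ITGB5 and ITGB8) and 4 cadherins (CDH2, CDH11, CDH18 and CDH24). None of the other 29 rows reached 1 FPKM in any library. Just outside the limit were ITGA2B and CDH10, with third-highest libraries of 0.538 and 0.523 FPKM, and just inside were ITGA8 at 1.04 and ITGA6 at 1.37 FPKM.

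The study asked how the transcriptome responds when NDUFS6, an accessory subunit of mitochondrial complex I, is lowered or raised. SK-N-BE(2) is a neuroblastoma line with amplified MYCN and SH-SY5Y is a neuroblastoma line without that amplification. Each line carried, after lentiviral infection and puromycin selection, short hairpin RNA against NDUFS6 (knockdown), the full human NDUFS6 coding sequence (overexpression), or the empty vector matching each of these (knockdown control and overexpression control). This made 8 groups of 3 libraries, and all groups shared the infection and the puromycin. The labels call the 3 libraries biological replicates and place all 24 in the same batch. They do not say whether the 3 came from separate infections, how many hairpin sequences were used, or whether both lines had the same hairpin, so a p-value here speaks of the spread among these libraries only. No clone is named. In bulk RNA, fewer cells of a kind and less RNA per cell cannot be told apart.

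Integrins are membrane receptors made of an alpha and a beta chain. The pairing sets the ligand, with alpha 1, 2 and 11 joining beta 1 to bind collagens, alpha V, 5 and 8 binding the RGD motif of fibronectin, vitronectin and related proteins, alpha 3, 6 and 7 binding laminins, and alpha 4 and 9 binding VCAM1, fibronectin or tenascin. Cadherins are calcium-dependent receptors that bind the same or a similar cadherin on the next cell and tie it to actin through catenins. CDH2 (N-cadherin) is the typical cadherin of neural and mesenchymal cells, and CDH1 (E-cadherin) that of epithelium.

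The 3 members that rose by at least 1 on the log2 scale in a knockdown were ITGA11, ITGB5 and CDH2, and RefSeq's promoter table held all 3. Each line gives 300 bases, most of them before and the last few after the most upstream RefSeq start on GRCh38.p14, 5′ to 3′ on the gene's strand, which need not be the start used in these cells. ITGA11 lies at chr15:68432114-68432413 (minus strand), ITGB5 at chr3:124901369-124901668 (minus strand) and CDH2 at chr18:28177081-28177380 (minus strand). Capitals mark matches to the motifs searched.
ITGA11: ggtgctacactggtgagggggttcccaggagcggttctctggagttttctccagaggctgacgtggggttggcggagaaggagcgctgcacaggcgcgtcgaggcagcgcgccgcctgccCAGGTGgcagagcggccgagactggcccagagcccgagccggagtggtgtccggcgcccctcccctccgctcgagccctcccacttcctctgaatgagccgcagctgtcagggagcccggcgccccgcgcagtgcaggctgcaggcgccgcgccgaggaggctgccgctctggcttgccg
ITGB5: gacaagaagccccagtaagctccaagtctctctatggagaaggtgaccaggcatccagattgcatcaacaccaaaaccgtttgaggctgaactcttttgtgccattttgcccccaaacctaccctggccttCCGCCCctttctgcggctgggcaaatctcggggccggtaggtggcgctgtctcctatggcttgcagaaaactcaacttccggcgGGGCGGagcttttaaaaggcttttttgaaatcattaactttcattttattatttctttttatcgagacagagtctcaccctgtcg
CDH2: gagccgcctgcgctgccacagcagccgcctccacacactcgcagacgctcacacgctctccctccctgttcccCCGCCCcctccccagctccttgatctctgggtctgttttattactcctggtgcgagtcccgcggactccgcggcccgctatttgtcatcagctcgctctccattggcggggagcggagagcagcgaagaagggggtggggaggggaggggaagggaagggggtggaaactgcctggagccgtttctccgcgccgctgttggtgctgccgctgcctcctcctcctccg

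The motifs were searched on both strands, and each was spelled with its letters. The E-box CAGGTG, which zinc finger repressors such as SNAI2 and ZEB1 can bind, matched at -130 in ITGA11 and was present in 20.6% of all 27305 RefSeq promoters of the same length. The GC box GGGCGG matched at -119 and -35 in ITGB5 and at -177 in CDH2, and was present in 44.5% of all promoters. The AP-1 motif TGANTCA, the CRE TGACGTCA and the TATA box TATAAA matched in none of these 3 sequences and were present in 7.72%, 1.97% and 12.0% of all promoters. Of the 20 members, 14 had an entry in the promoter table. These matches describe the letters of the windows only.

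The libraries summed to between 249708 and 276091 FPKM, held 12607 to 14018 genes at 1 FPKM or more, and correlated at 0.981 to 0.993 (Pearson r over the tested genes) within a group. NDUFS6 checked the labels. It lay at 1.09, 1.61 and 1.30 FPKM in the SK-N-BE(2) knockdown against 9.29, 12.2 and 11.9 in its control, and at 3.11, 3.98 and 4.98 in the SH-SY5Y knockdown against 11.2, 11.1 and 12.1. With overexpression it lay at 214, 211 and 199 FPKM in SH-SY5Y against 10.2, 11.5 and 11.2, but only at 14.9, 17.8 and 19.0 in SK-N-BE(2) against 11.8, 13.9 and 12.7. The SK-N-BE(2) overexpression group therefore carried a 1.34-fold higher NDUFS6 level than its control, where the SH-SY5Y group carried a 19.0-fold higher level.

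All 8 sympathoadrenal neuroblastoma markers examined passed the expression limit. Their summed level was 263 to 340 FPKM in the SK-N-BE(2) knockdown against 561 to 572 in its control. Of the 8, 7 were lower and TH was higher, where 28.3% of all tested genes were lower and 27.4% higher. In SH-SY5Y the sum was 611 to 633 FPKM against 762 to 767. There 3 of 8 were higher and 3 lower, near the share of all tested genes (26.3% higher and 29.6% lower). The 5 genes listed as fibroblast markers (COL1A1, COL3A1, DCN, LUM and PDGFRB) all passed the expression limit, and in SH-SY5Y they summed to 226 to 238 FPKM in the knockdown, 95.3 to 98.8 in the knockdown control, 25.7 to 27.9 in the overexpression group and 22.3 to 24.5 in the overexpression control. In SK-N-BE(2) these sums were 139 to 161 FPKM in the knockdown, 119 to 125 in its control, 180 to 197 in the overexpression group and 153 to 161 in its control. The defining markers of immune cells (PTPRC, CD3E, CD14), endothelium (PECAM1, VWF, KDR, TEK), Schwann cells (SOX10, ERBB3) and the epithelial keratin gene KRT8 stayed under 1 FPKM in every library. The macrophage marker CD68 was above that limit, at 8.59 to 11.6 FPKM in the SH-SY5Y knockdown against 1.68 to 2.32 in its control. The part of these marker changes in the results below was not tested.

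In both lines most integrin message came from ITGB1, which encodes the beta chain shared by most integrins, and ITGAV, the alpha chain of the vitronectin receptors. ITGB1 made up between 87.7% ± 0.310 (SD, n = 3, SK-N-BE(2) knockdown) and 96.7% ± 0.0619 (SK-N-BE(2) overexpression control) of the summed beta-chain FPKM. ITGAV made up between 31.4% ± 0.479 (SH-SY5Y knockdown control) and 48.9% ± 1.34 (SK-N-BE(2) knockdown control) of the summed alpha-chain FPKM. Of the cadherins, CDH2 held the main share in all 8 groups, from 52.4% ± 0.462 in the SK-N-BE(2) overexpression control to 84.0% ± 1.98 in the SH-SY5Y knockdown. CDH1 reached at most 0.124 FPKM in any library. The heat map of the 20 genes shows that these lines held few beta chains other than ITGB1 and, in SK-N-BE(2), next to no ITGA3, ITGA5 or ITGA7.

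**Figure D1:**
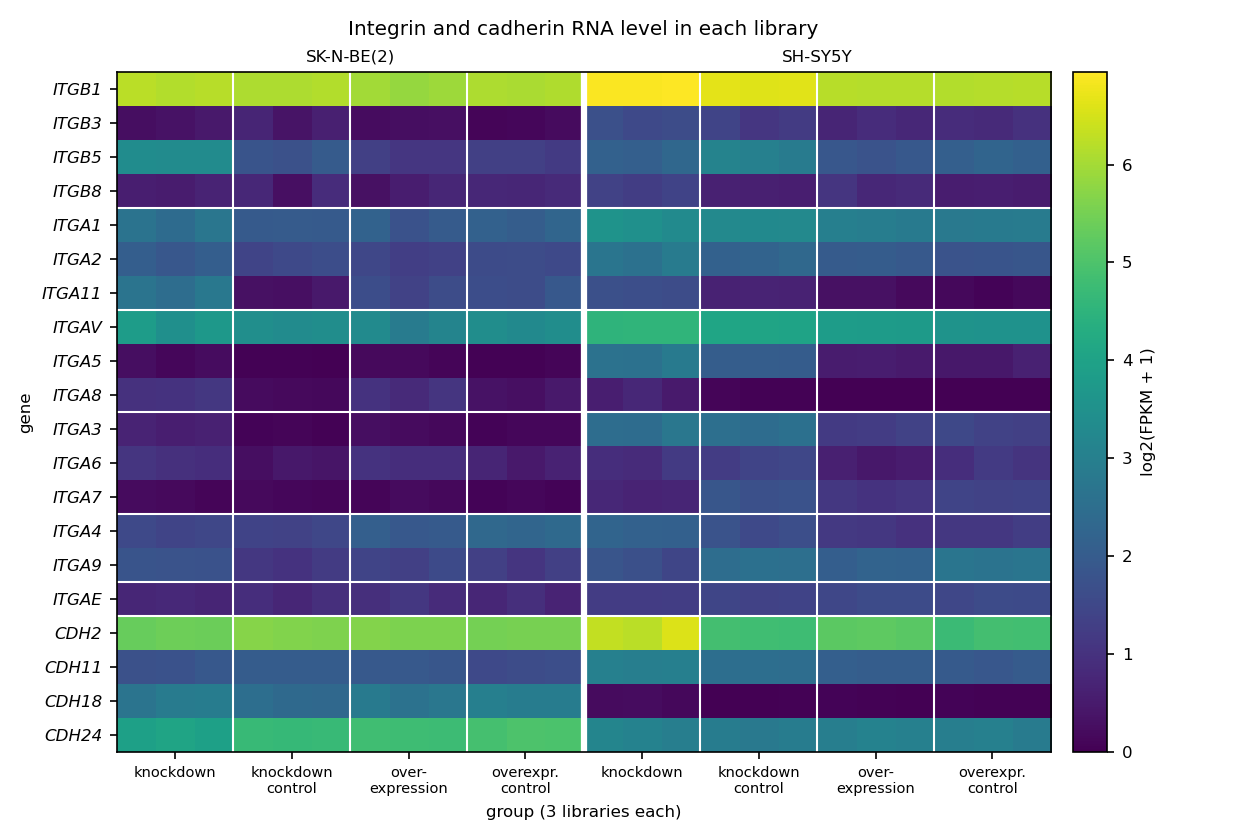
Level of each of the 20 genes (rows) in each of the 24 libraries (columns, 8 groups of 3), coloured by log2(FPKM + 1). ITGB1 and CDH2 are the brightest rows throughout (yellow is high, dark purple low), with ITGB1 reaching 122 FPKM and CDH2 94.3 FPKM in the SH-SY5Y knockdown, and CDH18 is above 1 FPKM only in the 12 SK-N-BE(2) libraries.

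Knockdown of NDUFS6 went with higher integrin alpha-chain levels in both lines, while the cadherins moved in different directions. In SK-N-BE(2) the summed alpha-chain level was 33.5 ± 3.05 FPKM (SD, n = 3) in the knockdown against 19.4 ± 0.597 in its control, and in SH-SY5Y 60.0 ± 0.971 against 49.7 ± 0.509. The summed cadherin level was 65.9 ± 2.71 against 81.9 ± 2.05 FPKM in SK-N-BE(2) and 98.0 ± 10.1 against 40.8 ± 1.02 in SH-SY5Y. With overexpression the alpha-chain sums were 22.6 ± 2.71 against 24.6 ± 1.47 FPKM in SK-N-BE(2) and 33.1 ± 0.511 against 33.5 ± 0.286 in SH-SY5Y. The summed cadherin level of SH-SY5Y was 46.8 ± 0.801 FPKM with overexpression against 38.0 ± 1.33, and the summed beta-chain level of SK-N-BE(2) was 61.5 ± 3.09 against 69.4 ± 1.34, both without overlap between the groups. In SH-SY5Y, however, the knockdown control itself stood above the overexpression control (49.7 against 33.5 FPKM). No test was made of these sums.

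Gene by gene, limma was fitted to log2(FPKM + 1) over all 15903 genes that met the same expression limit, and calls were made at an adjusted p under 0.05 (Benjamini-Hochberg). All log2 changes below are on this scale, on which low genes appear to change less than they did, and SE is the standard error of the log2 change. In the SK-N-BE(2) knockdown 11 of the 20 members rose and 3 fell, where 55.7% of all tested genes were called (27.4% higher and 28.3% lower). In the SH-SY5Y knockdown 13 rose and 4 fell, where 56.0% of all genes were called (26.3% higher and 29.6% lower). The median log2 change of the 20 was 0.23 in SK-N-BE(2) and 0.32 in SH-SY5Y, against -0.01 for all tested genes in each line. These counts describe the genes that passed the limit and support nothing by themselves, since a member such as ITGB8 or ITGA8, above 1 FPKM in 4 and 5 libraries, passed only through the groups where it was high. With values scaled to a fixed sum, low members had log2 changes over 1.5 times as large, such as ITGA11 (3.43), ITGA8 (1.83), ITGA3 (1.43) and ITGA6 (1.26) in the SK-N-BE(2) knockdown and ITGA7 (-1.61) and ITGA8 (1.33) in SH-SY5Y.

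Across the lines, 6 members rose in both knockdowns (ITGA2, ITGA5, ITGA8, ITGA11, ITGAV and CDH18), where 9.97% of all tested genes rose in both. None fell in both, where 10.6% of all genes did. Another 6 were called in opposite directions, with ITGA6, ITGA9 and ITGB5 higher in SK-N-BE(2) and lower in SH-SY5Y, and CDH2, CDH11 and CDH24 lower in SK-N-BE(2) and higher in SH-SY5Y. Opposite calls were found in 14.1% of all tested genes. ITGAE, the alpha chain of the receptor by which lymphocytes hold to E-cadherin, was called in neither. Its change in SH-SY5Y (-0.16, limma adjusted p = 0.0677) was called lower against the overexpression control (-0.30, adjusted p = 0.00145). With values scaled to a fixed sum it was called lower too (-0.32, adjusted p = 0.0244). The remaining 7 were called in a single line, but a call in a single line is no test of a difference between the lines. The difference itself, tested as an interaction, was called for 17 of the 20 (9 with the higher response in SK-N-BE(2), 8 with the lower), where 55.8% of all genes were called (29.5% higher and 26.3% lower). For overexpression the difference between the lines was called for 13 (5 higher and 8 lower), where 36.8% of all genes were called (18.3% higher and 18.5% lower).

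**Figure D2:**
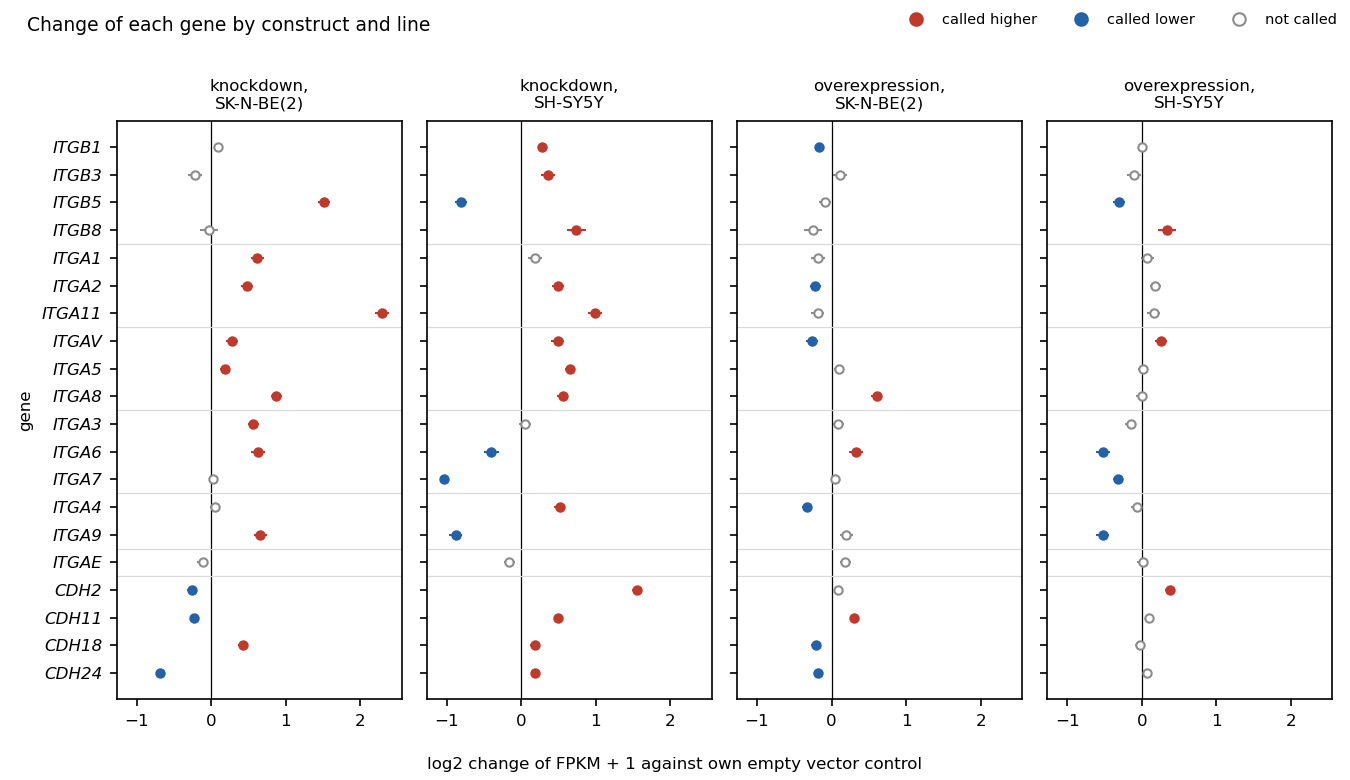
Log2 change with its SE (bars) of each of the 20 genes in the 4 construct comparisons, each against its own empty vector control, n = 3 libraries per group. ITGA11 (2.29) and ITGB5 (1.51) lead in the SK-N-BE(2) knockdown and CDH2 (1.55) in the SH-SY5Y knockdown, while all overexpression changes lie between -0.52 and 0.61.

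Among the beta chains, ITGB5, which pairs with alpha V to bind vitronectin, had opposite responses. In SK-N-BE(2) it lay at 2.52, 2.27 and 2.98 FPKM in the knockdown control and at 9.31, 9.15 and 9.16 FPKM in the knockdown. All 3 knockdown libraries were above all 3 controls, and the rise was 1.51 (SE 0.08, limma adjusted p = 2.68e-12). In SH-SY5Y it lay at 7.56, 7.11 and 6.48 FPKM in the control and at 3.43, 3.31 and 4.01 FPKM in the knockdown, again without overlap but in the other direction, a fall of -0.81 (SE 0.08, limma adjusted p = 2.44e-08). The difference between the lines was 2.32 (SE 0.11, limma adjusted p = 7.90e-13). The SH-SY5Y direction rested on the control chosen, since the overexpression control lay at 3.26, 3.76 and 3.35 FPKM, level with the knockdown, and against it the change was 0.04 (limma adjusted p = 0.704). The overexpression control of SK-N-BE(2) lay lower, at 1.47, 1.49 and 1.26 FPKM, and the rise against it was 2.09.

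ITGB1 was high everywhere and moved little. In SH-SY5Y it lay at 101, 96.0 and 99.1 FPKM in the knockdown control and at 118, 119 and 122 FPKM in the knockdown, without overlap, a rise of 0.28 (SE 0.04, limma adjusted p = 1.50e-06), or 0.18 with values scaled to a fixed sum. The overexpression control of that line lay at 70.5, 70.9 and 73.0 FPKM, and against it the knockdown stood 0.74 higher. In SK-N-BE(2) the control lay at 67.5, 67.1 and 69.5 FPKM and the knockdown at 74.5, 70.2 and 71.9. The difference of 0.08 missed the threshold (limma adjusted p = 0.0556) but passed it without knockdown library 2 (0.10, adjusted p = 0.0330) and with either other scaling. The interaction of ITGB1 was -0.20 (limma adjusted p = 0.00303) and turned to 0.01 with values scaled to a fixed sum (adjusted p = 0.948).

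ITGB8, another partner of alpha V and an activator of latent TGF-beta, rose in the SH-SY5Y knockdown from 0.505 to 0.562 FPKM over the control libraries to 1.42 to 1.64 (0.74, limma adjusted p = 3.41e-05). In SK-N-BE(2) its ranges overlapped, at 0.207 to 0.830 in the control and 0.451 to 0.628 FPKM in the knockdown. ITGB3, the beta chain of the platelet and osteoclast receptors, rose in SH-SY5Y from 1.16 to 1.67 FPKM to 1.88 to 2.23 (0.36, limma adjusted p = 0.00238). With values scaled to a fixed sum this call was lost (0.42, adjusted p = 0.0534), as it was with a constant of 0.1 (0.55, adjusted p = 0.0549). On GENCODE release 29, 51.6% of the exon bases of ITGB3 are shared with AC068234.1 on the same strand, so its level is uncertain. In SK-N-BE(2) it stayed under 1 FPKM, with a change of -0.22 (limma adjusted p = 0.0527) that passed the threshold without knockdown library 3 (-0.28) or without control library 2 (-0.32). Against the overexpression control the change of ITGB3 in SK-N-BE(2) took the other sign (0.20, adjusted p = 0.0790).

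Of the collagen receptors, ITGA11, known from fibroblasts that hold fibrillar collagen, had the steepest rise. In SK-N-BE(2) it lay at 0.242, 0.210 and 0.385 FPKM in the knockdown control and at 5.37, 4.56 and 5.87 FPKM in the knockdown. The control libraries were near the floor and the groups were far apart, with an 18.9-fold ratio of means and a log2 change of 2.29 (SE 0.09, limma adjusted p = 3.81e-14). The overexpression control of the same line, however, lay at 2.13, 2.08 and 2.74 FPKM, and against it the rise was 0.92 (limma adjusted p = 4.76e-08). In SH-SY5Y ITGA11 lay at 0.578, 0.618 and 0.585 FPKM in the control and at 2.23, 2.19 and 2.05 FPKM in the knockdown, without overlap (0.99, SE 0.09, limma adjusted p = 9.50e-09). There the overexpression control was lower still, at 0.101, 0.0409 and 0.108 FPKM, and the rise against it was 1.54. Against its own control in each line, the rise was larger in SK-N-BE(2) by 1.30 (limma adjusted p = 3.13e-08). Against the overexpression controls the order was the other way (0.92 against 1.54), and that difference was not tested.

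ITGA2, the collagen receptor also found on platelets, rose in both knockdowns. It went from 1.68 to 2.10 FPKM over the control libraries to 2.70 to 3.20 in SK-N-BE(2) (0.48, limma adjusted p = 2.20e-05). In SH-SY5Y it went from 3.48 to 4.08 FPKM to 5.04 to 6.40 (0.49, limma adjusted p = 1.45e-05). The difference between the lines was -0.01 with an SE of 0.11. ITGA1 rose in SK-N-BE(2), from a mean of 2.94 FPKM to 4.43 to 5.58 (0.62, limma adjusted p = 6.07e-06). In SH-SY5Y its change was 0.18 (limma adjusted p = 0.0888), which passed without knockdown library 3 (0.25, adjusted p = 0.0375) and against the other control (0.60).

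**Figure D3:**
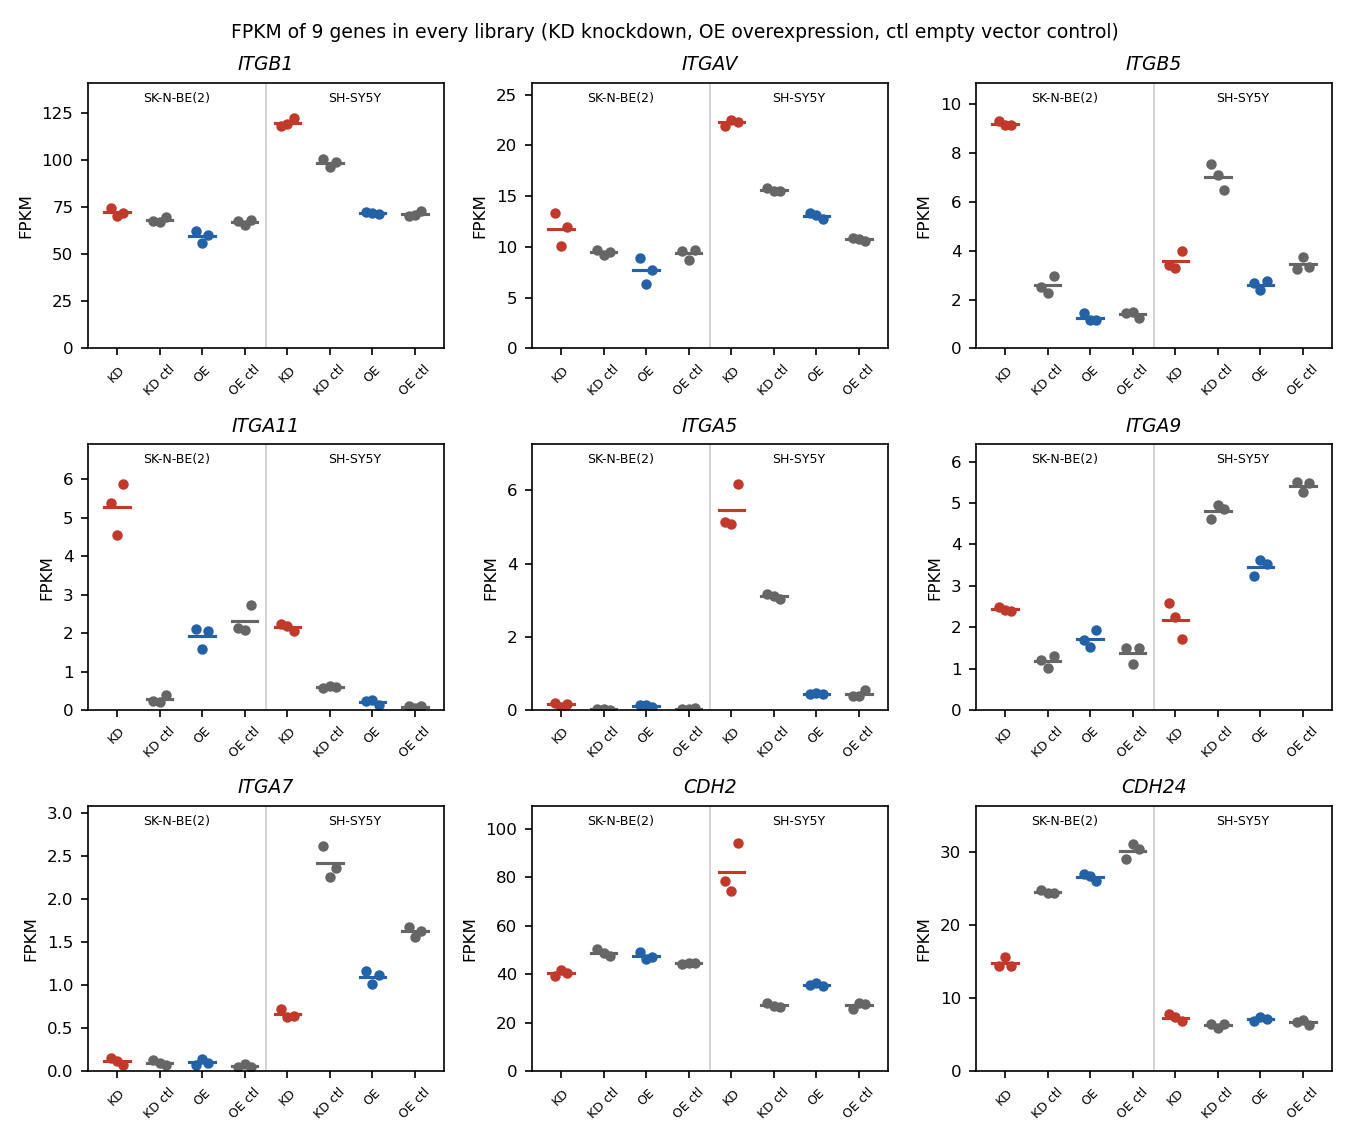
FPKM of 9 members in every library (points) with the mean of each group of 3 (line), by line and construct, each panel on its own linear axis from 0. ITGB5 is high in the SK-N-BE(2) knockdown (9.15 to 9.31 FPKM), CDH2 in the SH-SY5Y knockdown (74.3 to 94.3 FPKM), and ITGA5 in both SH-SY5Y groups of the knockdown arm (3.04 to 6.17 FPKM).

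Among the alpha chains that bind RGD, ITGAV was the most abundant. In SH-SY5Y it lay at 15.8, 15.5 and 15.5 FPKM in the knockdown control and at 21.9, 22.5 and 22.3 FPKM in the knockdown, without overlap (0.49, SE 0.08, limma adjusted p = 3.95e-05). The SK-N-BE(2) control lay at 9.72, 9.17 and 9.54 FPKM and the knockdown at 13.3, 10.1 and 12.0, a rise of 0.28 (limma adjusted p = 0.00694) that was lost without knockdown library 1 (0.19, adjusted p = 0.0604). The responses of ITGAV in the lines differed by -0.21, which missed the threshold (limma adjusted p = 0.139), but passed it without that library (-0.29, adjusted p = 0.0335).

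ITGA5, the fibronectin receptor alpha chain, was nearly absent from SK-N-BE(2), with no library above 0.193 FPKM. Its rise of 0.18 in that knockdown (limma adjusted p = 0.0295) was lost without knockdown library 1 or 3 or any control library (0.15 to 0.19). Nor was that rise called against the overexpression control (0.15, adjusted p = 0.0745). In SH-SY5Y ITGA5 rose from 3.04 to 3.16 FPKM over the control libraries to 5.08 to 6.17 in the knockdown (0.65, SE 0.07, limma adjusted p = 6.17e-08). Against the overexpression control, at 0.371 to 0.545 FPKM, the rise was 2.17. ITGA8, which binds nephronectin and related RGD ligands, rose from 0.110 to 0.148 FPKM to 1.01 to 1.20 in SK-N-BE(2) (0.87, limma adjusted p = 4.96e-09). In SH-SY5Y it rose from 0.0283 to 0.0585 to 0.419 to 0.695 FPKM (0.55, limma adjusted p = 2.46e-06), and it was listed at 0 in all 6 libraries of the overexpression arm.

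The laminin receptors did not move together. ITGA7, the laminin receptor of muscle, lay in SH-SY5Y at 2.63, 2.26 and 2.37 FPKM in the knockdown control and at 0.721, 0.630 and 0.643 FPKM in the knockdown. No library overlapped, and the fall was -1.04 (SE 0.06, limma adjusted p = 5.65e-12), or -0.66 against the overexpression control at 1.68, 1.56 and 1.64 FPKM. In SK-N-BE(2) ITGA7 was under 0.2 FPKM in every library. ITGA6, which pairs with beta 1 or beta 4, rose in SK-N-BE(2) from 0.187 to 0.375 FPKM to 0.888 to 1.11 (0.62, limma adjusted p = 1.54e-05) and fell in SH-SY5Y from 1.37 to 1.76 FPKM to 0.814 to 1.25 (-0.40, limma adjusted p = 0.00138). The fall of ITGA6 was not called against the overexpression control (-0.07, adjusted p = 0.575). ITGA3 rose in SK-N-BE(2), from at most 0.0585 FPKM to 0.488 to 0.607 (0.56, limma adjusted p = 2.27e-06). In SH-SY5Y ITGA3 lay at 4.45 to 4.88 FPKM in the knockdown control and 4.47 to 5.70 in the knockdown (0.05, adjusted p = 0.624), but at 1.51 to 1.86 FPKM in the overexpression control, from which the knockdown differed by 1.15.

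ITGA9 and ITGA4 form the closely related pair that binds VCAM1, fibronectin or tenascin. ITGA9 rose in SK-N-BE(2) from 1.02 to 1.31 FPKM over the control libraries to 2.39 to 2.49 (0.66, SE 0.09, limma adjusted p = 1.81e-06). In SH-SY5Y it fell from 4.62 to 4.94 FPKM to 1.71 to 2.58 (-0.88, limma adjusted p = 2.94e-08). Neither direction of ITGA9 depended on the control, with 0.54 and -1.02 against the other one, and the lines differed by 1.54 (limma adjusted p = 1.57e-09). ITGA4 rose in SH-SY5Y from 1.90 to 2.43 FPKM to 3.37 to 3.68 (0.51, limma adjusted p = 2.75e-06). In SK-N-BE(2) it lay at 1.61 to 1.81 FPKM in the control and 1.66 to 1.89 in the knockdown (0.05, adjusted p = 0.545). The SK-N-BE(2) overexpression control held more ITGA4, at 3.78 to 4.20 FPKM, and the knockdown stood -0.85 below it (adjusted p = 3.73e-09).

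CDH2 had the most marked cadherin response. In SH-SY5Y it lay at 28.4, 27.1 and 26.8 FPKM in the knockdown control and at 78.7, 74.3 and 94.3 FPKM in the knockdown. Every knockdown library was far above every control, and the rise was 1.55 (SE 0.06, limma adjusted p = 2.18e-14), a 3.01-fold ratio of means. The overexpression control stood at 25.8, 28.4 and 27.8 FPKM, level with the knockdown control, and gave the same rise of 1.55. In SK-N-BE(2) CDH2 fell, from 50.6, 48.7 and 47.4 FPKM to 39.2, 41.9 and 40.8 FPKM (-0.26, SE 0.06, limma adjusted p = 0.000948, or -0.16 scaled to a fixed sum). Against the overexpression control of that line, at 44.5, 44.8 and 44.9 FPKM, the fall was -0.14 and was not called (adjusted p = 0.0703). The lines differed by -1.81 (limma adjusted p = 5.98e-13).

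CDH24, a cadherin that binds catenins, fell in SK-N-BE(2). It lay at 24.8, 24.4 and 24.5 FPKM in the knockdown control and at 14.5, 15.6 and 14.4 FPKM in the knockdown, without overlap (-0.69, SE 0.05, limma adjusted p = 2.27e-10). The overexpression control lay higher, at 29.0, 31.2 and 30.5 FPKM, with a fall of -0.98 against it. In SH-SY5Y CDH24 lay at 6.55, 6.02 and 6.50 FPKM in the control and at 7.88, 7.42 and 6.85 in the knockdown (0.19, limma adjusted p = 0.00231). That rise was lost with values scaled to a fixed sum (0.11, adjusted p = 0.0694) and against the overexpression control (0.11, adjusted p = 0.0638).

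CDH11, the cadherin of osteoblasts and other mesenchymal cells, rose in SH-SY5Y from 4.64 to 4.67 FPKM over the control libraries to 6.81 to 7.14 in the knockdown (0.50, limma adjusted p = 4.69e-08), and by 1.04 against the overexpression control. In SK-N-BE(2) it fell from 3.07 to 3.08 to 2.30 to 2.78 FPKM (-0.23, limma adjusted p = 0.000718), but against the overexpression control, at 1.90 to 2.19 FPKM, it was higher (0.20, adjusted p = 0.00309). CDH18, a cadherin of the nervous system, was a gene of SK-N-BE(2) in these samples and rose there from 4.05 to 4.67 FPKM to 5.35 to 6.57 (0.42, limma adjusted p = 1.55e-05). Against the overexpression control, at 6.50 to 6.96 FPKM, CDH18 in the knockdown took the other sign and was not called (-0.11, adjusted p = 0.175). In SH-SY5Y it stayed under 0.2 FPKM, and its rise of 0.18 (limma adjusted p = 0.0257) was lost without any of 4 libraries, knockdown 1 or 2 or control 1 or 2 (0.16 to 0.18). Nor was that rise called against the overexpression control (0.14, adjusted p = 0.0714).

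**Figure D4:**
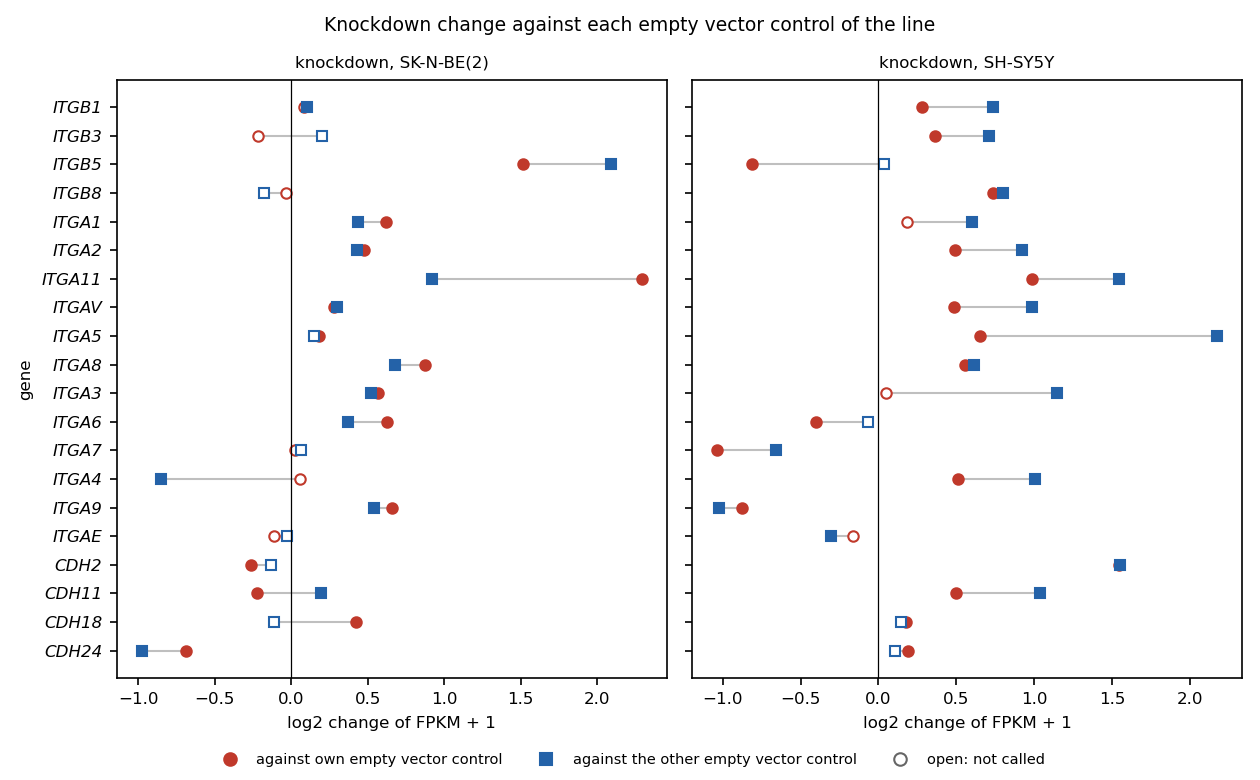
Log2 change of FPKM + 1 (horizontal axis) of each member (rows) in the knockdown of each line (panels), against its own empty vector control (red circles) and against the overexpression empty vector control of the same line (blue squares), joined by a grey line, with open symbols where the change was not called. The symbols of CDH2 in SH-SY5Y coincide (1.55 and 1.55), while those of ITGA11 in SK-N-BE(2) (2.29 and 0.92) and of ITGA5 in SH-SY5Y (0.65 and 2.17) lie far apart, and both symbols of a row share the same knockdown libraries.

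Since several members took another value against the other control, the 2 kinds of empty vector control were set against each other within a line. In SH-SY5Y 13 of the 20 members were higher in the knockdown control than in the overexpression control and none was lower, where 36.2% of all tested genes were called (18.4% higher and 17.8% lower). ITGA5 stood out at 1.52 (SE 0.07, limma adjusted p = 1.13e-12), followed by ITGA3 at 1.10 and ITGB5 at 0.85. The rise of ITGA6 among these (0.33) was lost without overexpression control library 1 (0.27, adjusted p = 0.0585). In SK-N-BE(2) 8 members differed, 3 higher and 5 lower, where 34.5% of all genes were called (15.5% higher and 19.0% lower). The SK-N-BE(2) differences were led by ITGA11 at -1.37 (limma adjusted p = 4.56e-10) and ITGA4 at -0.91 (adjusted p = 4.92e-09). NDUFS6 itself overlapped between the controls of each line. In SK-N-BE(2) the call of ITGA6 (-0.25) was lost without knockdown control library 1 or 3 or overexpression control library 1 or 3 (-0.19 to -0.27), and that of ITGA8 was gained without overexpression control library 2 (-0.23).

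Against the other control the knockdowns had calls in part for other members. In SH-SY5Y 13 members were then higher and 3 lower, where 58.2% of all genes were called, and 13 of the 17 own-control calls were called in the same direction against both. In SK-N-BE(2) 11 were higher and 2 lower, where 47.7% of all genes were called, and 10 of the 14 calls were shared. Among all genes called against their own control, 76.0% in SH-SY5Y and 63.6% in SK-N-BE(2) were called the same way against the other control. Members with the same call in both lines against both controls were ITGA2, ITGA8, ITGA11 and ITGAV, and all 4 rose, where 5.46% of all tested genes rose and 5.80% fell in all of these comparisons.

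Overexpression went with smaller changes. In SH-SY5Y, where NDUFS6 was strongly raised, 3 members rose and 4 fell, where 32.6% of all tested genes were called (15.4% higher and 17.2% lower). CDH2 rose, from 25.8, 28.4 and 27.8 FPKM in the overexpression control to 35.6, 36.4 and 35.1 (0.37, SE 0.06, limma adjusted p = 7.53e-05). ITGA9 fell from 5.26 to 5.50 FPKM to 3.24 to 3.62 (-0.52), ITGA6 from 0.888 to 1.27 to 0.376 to 0.521 (-0.52), ITGA7 from 1.56 to 1.68 to 1.01 to 1.17 (-0.32) and ITGB5 from 3.26 to 3.76 to 2.40 to 2.75 (-0.30). The rises of ITGAV (0.26, limma adjusted p = 0.0199) and ITGB8 (0.34, adjusted p = 0.0417) were lost without single libraries, namely overexpression 1 or 2 or control 3 for ITGAV (0.25 to 0.26) and overexpression 1 or 3 or any control for ITGB8 (0.25 to 0.37). CDH2, ITGAV and ITGB8 had also risen, and ITGA6, ITGA7, ITGA9 and ITGB5 had also fallen, in the SH-SY5Y knockdown against its own control. Of all genes called in SH-SY5Y overexpression, 50.3% were called in the same direction and 20.3% in the opposite direction in that knockdown. The knockdown falls of ITGB5 and ITGA6 were not called against the other control, as given above. Against the knockdown control instead, 16 members were called, 2 higher and 14 lower, where 55.4% of all genes were called.

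In SK-N-BE(2) overexpression 3 members rose and 6 fell, where 29.7% of all tested genes were called (12.9% higher and 16.8% lower). ITGA8 rose from 0.230 to 0.385 FPKM to 0.784 to 1.09 (0.61, limma adjusted p = 9.92e-06), with CDH11 at 0.30 and ITGA6 at 0.33. ITGB1 lay at 67.7, 65.6 and 68.1 FPKM in the control and at 62.2, 56.2 and 60.0 FPKM with overexpression, without overlap (-0.17, SE 0.04, limma adjusted p = 0.00162). ITGA4 (-0.33), ITGAV (-0.26), ITGA2 (-0.22), CDH18 (-0.21) and CDH24 (-0.18) also fell. Fitted on the groups of this comparison alone, a single member was called. Leaving out overexpression library 2 ended the calls of ITGAV (-0.15), ITGA2 (-0.17) and CDH18 (-0.16), and leaving out control library 2 ended that of ITGA6 (0.25). Calls were also lost for ITGAV without control 1 or 3 (-0.24), for ITGA2 without overexpression 3 or any control (-0.20 to -0.24) and for CDH18 without overexpression 3 or control 1 or 3 (-0.18 to -0.22). Without other libraries calls were gained, for ITGA1 without overexpression 1 (-0.29) and for ITGAE without overexpression 3 (0.24) or control 2 (0.26).

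The lines themselves differed in 19 of the 20 members when the 6 control libraries of each were compared (6 higher and 13 lower in SK-N-BE(2)), where 77.3% of all tested genes were called (33.5% higher and 43.8% lower). CDH18 lay at 4.05 to 6.96 FPKM in the SK-N-BE(2) controls and at most 0.0410 in those of SH-SY5Y, and CDH24 at 24.4 to 31.2 FPKM against 6.02 to 7.11. CDH2 was also higher in SK-N-BE(2), at 44.5 to 50.6 FPKM against 25.8 to 28.4 (0.75, limma adjusted p = 1.64e-12). ITGA3 (-1.87), ITGA7 (-1.47), ITGA9 (-1.43), ITGA5 (-1.23) and ITGB5 (-1.03) were lower in SK-N-BE(2). ITGB8 was not called (0.13, adjusted p = 0.190), but was without SK-N-BE(2) knockdown control library 2 (0.22, adjusted p = 0.00829). Each kind of neuroblastoma is represented by a single line here, so these are differences between 2 cell lines.

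The partners of these receptors were read from lists, beside all tested genes, of which 27.4% rose and 28.3% fell in the SK-N-BE(2) knockdown and 26.3% rose and 29.6% fell in SH-SY5Y. Of 21 tested genes for integrin activators and adaptors, 9 rose and 4 fell in the SK-N-BE(2) knockdown and 12 rose and 3 fell in SH-SY5Y, with median log2 changes of 0.03 and 0.39. Zyxin (ZYX), a protein of mature focal adhesions, had a log2 rise of 1.56 (limma adjusted p = 6.89e-12) in the former and 1.71 (adjusted p = 1.07e-12) in the latter. Kindlin-2 (FERMT2), which binds beta-chain tails and activates integrins, rose by 0.88 (adjusted p = 1.08e-10) and 1.60 (adjusted p = 7.36e-15). PXN rose by 0.79 in SK-N-BE(2) and TNS2 by 0.96 in SH-SY5Y. Overexpression called 1 higher and 1 lower in SK-N-BE(2) (all tested genes 12.9% and 16.8%), and 6 higher and 5 lower in SH-SY5Y (15.4% and 17.2%).

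Of 24 tested ligands, 14 rose and 3 fell in SK-N-BE(2) (all tested genes 27.4% and 28.3%) and 14 rose and 4 fell in SH-SY5Y (26.3% and 29.6%), with median log2 changes of 0.21 and 0.47. Thrombospondin 1 (THBS1), a ligand of several integrins, rose from 0.378 to 11.0 FPKM in SK-N-BE(2) (means of 3 libraries, 3.12, limma adjusted p = 1.99e-18). The basement membrane collagen genes COL4A1 and COL4A2 fell there (-1.45 and -1.23), but against the overexpression control the changes were 0.13 (not called) and 0.19. In SH-SY5Y VCAM1, a ligand of alpha 4 and 9, rose by 1.66, LAMB1, a laminin chain, by 0.90 and COL4A1 by 1.02. Between the SH-SY5Y controls, 23 of the 24 ligands were higher in the knockdown control and none was lower, where 18.4% of all tested genes were higher and 17.8% lower. Of 9 membrane partners, 4 rose and 2 fell in SK-N-BE(2) and 5 rose in SH-SY5Y. SLC3A2, the heavy chain of an amino acid transporter that binds beta chains, rose from 12.2 to 69.1 FPKM in SK-N-BE(2) (means of 3, 2.40, limma adjusted p = 9.38e-17), and the rise in SH-SY5Y was 0.58. The tetraspanin gene CD9 fell in SK-N-BE(2) (-0.65) and rose in SH-SY5Y (1.20).

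On the cadherin side, 2 of 9 tested catenin and linker genes rose and 6 fell in the SK-N-BE(2) knockdown (all tested genes 27.4% and 28.3%), and 5 rose and 3 fell in SH-SY5Y (26.3% and 29.6%). CTNNA2, the neural alpha-catenin, rose in SK-N-BE(2) (0.69) and fell in SH-SY5Y from 6.97 to 1.17 FPKM (means of 3, -1.88, limma adjusted p = 1.36e-16). The SK-N-BE(2) direction turned against the overexpression control (-0.40), and that of CTNNA1 (0.33) turned too (-0.04, not called). JUP, which links cadherins to the cytoskeleton, rose by 0.54 in SH-SY5Y, where PKP4 fell (-0.51), and PKP2 fell in SK-N-BE(2) (-0.62). Of 7 desmosomal cadherins only DSG2 reached the expression limit, and it rose in SH-SY5Y from 0.605 to 1.18 FPKM (0.44). Among 15 other genes of the superfamily 3 rose and 6 fell in SK-N-BE(2). The genes that rose were PCDH1 (1.61), PCDH10 (0.97) and CLSTN3 (0.70), and PCDH20 had the deepest fall (1.07 to 0.0571 FPKM, means of 3, -0.98), which was not seen against the overexpression control (0.076, adjusted p = 0.634). Of the exon bases of PCDH20, 95.8% are shared with AL592490.1 on the same strand, so its level is uncertain. In SH-SY5Y 4 of these 15 genes rose and 8 fell, with FAT4 higher (1.87), CELSR2 lower (-1.33) and PCDH1 lower (-0.95). MMP14, a membrane protease that can cut cadherins and matrix, fell in SK-N-BE(2) from 22.0 to 7.56 FPKM (-1.43) and rose in SH-SY5Y from 1.48 to 10.9 FPKM (2.26, means of 3). In the same list of 7 processing genes NCSTN rose in both (0.34 and 0.98) and MGAT5 fell in both (-0.44 and -0.97).

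The transcription factors known to repress CDH1 were read although CDH1 was near 0 throughout. Of 6 tested, 4 rose and 1 fell in the SK-N-BE(2) knockdown (all tested genes 27.4% and 28.3%), and 4 rose and 2 fell in SH-SY5Y (26.3% and 29.6%). With overexpression 3 rose and 1 fell in SK-N-BE(2) (all tested genes 12.9% and 16.8%), and 2 fell in SH-SY5Y (15.4% higher and 17.2% lower). SNAI2 rose in SK-N-BE(2) from 2.59 to 14.0 FPKM (2.07, limma adjusted p = 2.31e-13) and in SH-SY5Y from 3.15 to 11.9 (1.64, adjusted p = 5.72e-12, means of 3). SNAI1 rose by 1.36 and 1.48, and TWIST1 fell in both (-1.27 and -0.49). ZEB1 rose in SK-N-BE(2) (0.63) and fell in SH-SY5Y (-0.47), and ZEB2 rose in SH-SY5Y (0.27) and was not called in SK-N-BE(2) (0.10, adjusted p = 0.217). TWIST2 rose in SK-N-BE(2) from 0.190 to 1.86 FPKM (1.27, limma adjusted p = 2.98e-07) and in SH-SY5Y from 0.589 to 1.98 (0.90, adjusted p = 2.02e-05, means of 3). With overexpression in SK-N-BE(2) TWIST2 rose from 0.0242 to 2.23 FPKM (1.65, limma adjusted p = 1.67e-07), and in SH-SY5Y it was not called (0.09). In SK-N-BE(2) overexpression TWIST1 rose (0.42), but it stood lower against the other control (-0.38). There SNAI1 rose (0.35, lost without overexpression 2 or 3 or control 2 or 3, 0.27 to 0.33), ZEB2 fell (-0.22, lost without overexpression 2 or 3 or control 1 or 3, -0.15 to -0.21), and ZEB1 was not called (-0.22) except without overexpression 1 (-0.34). In SH-SY5Y SNAI1 fell (-0.46), a call lost without control library 1 (-0.36), and ZEB1 fell (-0.28), a call lost without overexpression 2 or control 1 (-0.28 and -0.26).

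Adhesion molecules of the immunoglobulin family, another main group of surface adhesion receptors of neurons, were read last. In SK-N-BE(2) 9 of 12 tested genes rose and 2 fell (all tested genes 27.4% and 28.3%), with L1CAM at 0.52, NCAM1 at 0.62 and MCAM at 0.50. In SH-SY5Y 1 rose and 8 fell (26.3% and 29.6%), and the falls were deep for CADM3 (13.1 to 0.912 FPKM, -2.88), L1CAM (22.9 to 4.19 FPKM, -2.20) and CADM1 (20.2 to 6.38 FPKM, -1.52, means of 3). Not all members of the list differed between the lines in direction. ALCAM rose in both (0.29 and 1.22, the former not called against the overexpression control, 0.11, adjusted p = 0.144). CADM4 fell in both (-0.69 and -0.25, the latter lost without knockdown library 2 or control library 3, -0.19 and -0.21). NCAM1 was not called in SH-SY5Y (0.04, adjusted p = 0.622). The median log2 change of the list was 0.29 in SK-N-BE(2) and -0.30 in SH-SY5Y. CADM3 shares 36.6% of its exon bases with an antisense gene. No source used here names the strand setting of the counting, so it is not known whether reads of the pair were told apart.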

How the data were processed

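RNA was sequenced from 24 libraries in 8 groups of 3. Per the labels' protocols, total RNA was taken with TRIzol, and strand-specific TruSeq libraries were read on a NovaSeq. The submitters' processing notes name the hg38 build with FastQC 0.11.2, StringTie 1.3.1c and STAR, without a version for the last. The authors deposited one table of FPKM values for 60564 rows. No source used here gives the annotation release, strand setting or read depth, and low values showed no whole-read steps. The depth is thus unknown, and the spread of 3 libraries is the only measure of precision.

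The 15903 genes at 1 FPKM or more in 3 or more libraries were taken as log2(FPKM + 1) with limma 3.58.1 in R 4.3.3, in a model of 8 groups with trend and robust moderation (16 residual degrees of freedom). Benjamini-Hochberg adjustment ran over all of them, with calls at an adjusted p under 0.05, two-sided. The code was tested on simulated data. Positions and exon overlaps came from GENCODE release 29, promoters from RefSeq (GRCh38.p14).

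The members, gene lists and tests were chosen with earlier results of these data known. Every one of the 20 members was named, with each library's value for those with a log2 change of at least 1 or a group mean of at least 20 FPKM. Partners were named as the 3 with the smallest adjusted p per list and knockdown, plus SNAI1, SNAI2, TWIST1, ZEB1 and ZEB2, and TWIST2, PCDH20, ALCAM and CADM4 were added after their values were seen. Alternatives were a constant of 0.1, no filter, a mean of at least 5 FPKM, values scaled to a fixed sum (as TPM) or by median of ratios, only the groups compared, a block for the replicate number, limma without trend, the other empty vector control, and leaving out each library.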

Additional observations from a re-analysis of the deposited data

Results flagged for a closer look

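Responses to knockdown and to overexpression differed between the lines for most members, by limma's interaction test on the log2(FPKM + 1) scale (SK-N-BE(2) response minus SH-SY5Y response, adjusted over all tested genes). For knockdown, the response was higher in SK-N-BE(2) for ITGB5 (2.32), ITGA9 (1.54), ITGA11 (1.30), ITGA7 (1.06), ITGA6 (1.03), ITGA3 (0.52), ITGA1 (0.44), ITGA8 (0.32) and CDH18 (0.24). It was lower there for CDH2 (-1.81), CDH24 (-0.88), ITGB8 (-0.77), CDH11 (-0.72), ITGB3 (-0.58), ITGA5 (-0.47), ITGA4 (-0.46) and ITGB1 (-0.20). The CDH18 difference was lost without SK-N-BE(2) knockdown library 2 or 3, SK-N-BE(2) control library 2 or 3, or library 3 of the SH-SY5Y knockdown or its control (0.20 to 0.23). The ITGA5 difference was lost with values scaled to a fixed sum (-0.08, adjusted p = 0.721), as were those of ITGA8 (0.50, adjusted p = 0.0540) and CDH18 (0.03, adjusted p = 0.885). With a constant of 0.1 the ITGA8 difference was 0.20 (adjusted p = 0.564). All these differences, here and for overexpression below, used each construct's own control and were not fitted against the other one. Against the other control the knockdown changes were 0.92 in SK-N-BE(2) and 1.54 in SH-SY5Y for ITGA11, and 0.52 and 1.15 for ITGA3. They were 0.44 and 0.60 for ITGA1 and -0.11 and 0.14 for CDH18. For these genes the order of the lines was thus the other way, and the other genes listed kept their order.

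For overexpression, the response was higher in SK-N-BE(2) for ITGA6 (0.85), ITGA9 (0.72), ITGA8 (0.61), ITGA7 (0.37) and CDH11 (0.20). It was lower there for ITGB8 (-0.58), ITGAV (-0.52), ITGA2 (-0.40), ITGA11 (-0.35), CDH2 (-0.28), ITGA4 (-0.26), CDH24 (-0.25) and ITGB1 (-0.18). ITGA8 was listed at 0 in all 6 SH-SY5Y libraries of the overexpression arm, so its value is the SK-N-BE(2) change alone. ITGA7 reached at most 0.151 FPKM in SK-N-BE(2), so its differences here and for knockdown came mainly from its SH-SY5Y falls. In all, 13 of the 20 members were called, where 36.8% of all tested genes were. Against the other control the overexpression changes were 1.18 in SK-N-BE(2) and -0.40 in SH-SY5Y for ITGA11, and 0.58 and -0.56 for ITGA4. They were -0.17 and -0.25 for ITGA2 and -0.19 and -0.45 for ITGB1. For these genes the order of the lines was thus the other way. The other genes listed kept their order, ITGAV only narrowly (-0.28 and -0.24). The values of CDH11 (0.16 to 0.19), ITGA11 (-0.26 to -0.36) and ITGA4 (-0.22 to -0.25) each lost their call without any of several libraries of either line and in the fit on the groups compared alone. With a fixed sum CDH11 (0.18, adjusted p = 0.141) and ITGA4 (-0.37, adjusted p = 0.0504) were not called. The NDUFS6 level itself was raised far less in SK-N-BE(2), and its part in these differences was not tested.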

How the results depend on the processing

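The number of members called stayed within 1.5 times the reported count except in the following settings. With a mean of at least 5 FPKM only 5 members remained to be tested, and calls were 4 (both knockdowns), 3 and 2 (overexpression in SK-N-BE(2) and SH-SY5Y), 4 (both differences between the lines' responses), 1 and 3 (controls of SK-N-BE(2) and SH-SY5Y) and 5 (between the lines), since fewer genes were tested. Overexpression in SK-N-BE(2) fitted on its own groups gave 1 call, and overexpression in SH-SY5Y against the other control gave 16. Leaving out each library gave 12 to 15 calls for the SK-N-BE(2) knockdown, 16 to 18 for SH-SY5Y, 6 to 10 and 5 to 6 for overexpression, 16 to 18 and 10 to 13 for the differences between responses, 7 to 9 and 12 to 13 between controls and 19 to 20 between the lines.

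Values turned with the other empty vector control, and the cause was not tested. Of those called against at least one control, in the SK-N-BE(2) knockdown these were CDH11 (0.20), CDH18 (-0.11), ITGA4 (-0.85), COL4A1 (0.13), COL4A2 (0.19), CTNNA1 (-0.044), CTNNA2 (-0.40) and PCDH20 (0.076), and in the SH-SY5Y knockdown ITGB5 (0.038). In SK-N-BE(2) overexpression they were CDH11 (-0.12), CDH18 (0.33), CDH24 (0.11), ITGA4 (0.58), ITGA11 (1.18), ITGB3 (-0.31), PCDH20 (-0.84) and TWIST1 (-0.38), and in SH-SY5Y overexpression CDH11 (-0.44), ITGA1 (-0.35), ITGA2 (-0.25), ITGA5 (-1.51), ITGA11 (-0.40), ITGAV (-0.24), ITGB1 (-0.45) and TWIST2 (-0.47). ITGB3 in the SK-N-BE(2) knockdown, called against neither, also turned (0.20). The line difference in knockdown response turned with a constant of 0.1 for CDH18 (-0.66) and ITGA5 (0.29), both low genes, and with a fixed sum for ITGB1 (0.0057).

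Scaling to a fixed sum also gave larger values, so the constant of 1 weighed less. It moved the median of all genes to -0.10 in the SH-SY5Y knockdown, -0.11 between the SK-N-BE(2) controls, 0.20 for the difference in knockdown response and -0.12 between the lines. Of all called genes, the share that was higher went from 49.2% to 60.8% and from 47.0% to 35.4% in the SK-N-BE(2) and SH-SY5Y knockdowns, from 43.4% to 32.7% in SK-N-BE(2) overexpression, from 52.8% to 69.8% and 49.8% to 38.3% for the differences in response and from 45.1% to 25.1% between the SK-N-BE(2) controls.

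Same-numbered libraries correlated at -0.08 to 0.37 after removing group means (12 pairs, 2 best with their own number), so the numbers were not taken as pairs. With the replicate block 17 members were called in the SH-SY5Y knockdown and 16 in SK-N-BE(2), where ITGB1 and ITGB3 were gained. Unknown depth limits what can be said of genes under 1 FPKM.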
